A study of Mus musculus with 22 samples.

Results

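Ndufa4l2 and 9 further genes of the response to low oxygen were followed across the esophageal epithelium of control mice and mice with EoE or ESCC, 10 genes of the 17541 listed in the count files. The 10 genes were chosen from measured values of these same samples, since Ndufa4l2 was far lower in both diseases than in controls, so its own difference from control is given as a description without a test. The other members are Ndufa4, Car2, Car12, Slc2a1, Vegfa, Bnip3, Egln3, Ddit4 and Pdk1. Single epithelial cells were sequenced with inDrop, where droplets tag every captured transcript with a cell barcode and a unique molecular identifier (UMI). All mice were C57BL6, and cells were released with Dispase and trypsin from the epithelial layer after its separation from the muscle. The 6 control mice were untreated, 3 of them young (3 to 4 months) and 3 old (18 to 20 months). The 4 EoE mice received MC903, a vitamin D analog, and ovalbumin (OVA) on the ears and then OVA by mouth over 32 days, and 2 of them were young (6 to 8 weeks) and 2 old (19 to 20 months). The 3 ESCC mice, 8 to 10 months old, drank the carcinogen 4NQO for 16 weeks and were then left without it for 8 weeks. No control mouse was of the age of the ESCC mice or of the young EoE mice, and as the controls were untreated, effects of MC903 alone or of the 4NQO vehicle cannot be told apart from those of the disease models.

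In cells with enough oxygen, prolyl hydroxylases mark the alpha subunits of hypoxia-inducible factor (HIF) for destruction. When oxygen falls, HIF accumulates and binds short hypoxia response elements, and its targets shift metabolism from respiration to glycolysis, take up glucose, export acid and call in blood vessels. Ndufa4l2 is a HIF-1 target that lowers mitochondrial respiration, and Ndufa4 is its relative, a subunit of cytochrome c oxidase that was first assigned to complex I. Stratified squamous epithelium has no vessels of its own, so its upper layers lie farthest from the blood.

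The coding sequences of Ndufa4l2 and Ndufa4 are shown because both genes were near or at 0 UMIs in EoE while they parted in ESCC. They are 264 and 249 bases long in GENCODE M21, an annotation of GRCm38, the assembly the authors aligned to with release M23. In a global alignment, 178 of 242 aligned bases (73.6%) were identical, with 28 bases as the longest identical run. Capitals mark the identical bases.
Ndufa4l2: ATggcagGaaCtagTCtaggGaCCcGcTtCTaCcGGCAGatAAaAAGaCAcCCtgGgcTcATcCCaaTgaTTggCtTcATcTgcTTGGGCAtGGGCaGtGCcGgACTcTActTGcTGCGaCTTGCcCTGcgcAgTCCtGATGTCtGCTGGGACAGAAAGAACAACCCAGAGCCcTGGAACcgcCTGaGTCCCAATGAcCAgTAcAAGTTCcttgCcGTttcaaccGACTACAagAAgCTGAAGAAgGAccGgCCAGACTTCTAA
Ndufa4: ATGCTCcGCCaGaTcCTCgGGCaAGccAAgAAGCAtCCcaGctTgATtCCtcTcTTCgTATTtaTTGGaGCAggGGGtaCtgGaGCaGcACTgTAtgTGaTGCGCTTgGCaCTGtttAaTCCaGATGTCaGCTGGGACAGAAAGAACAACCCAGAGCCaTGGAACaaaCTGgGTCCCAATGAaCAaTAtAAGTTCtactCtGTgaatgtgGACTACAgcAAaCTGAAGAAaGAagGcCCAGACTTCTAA

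On GRCm38, Ndufa4l2 is annotated at chr10:127514967-127517154 on the plus strand and Ndufa4 at chr6:11900292-11907497 on the minus strand. Ndufa4l2 overlaps Shmt2, a serine hydroxymethyltransferase gene on the opposite strand, and the sources used here do not state whether reads were counted by strand. Its UMIs numbered 174 in control mice, 14 in EoE mice and 793 in ESCC mice. None of the 10 members had a near-identical copy, taken as a second gene holding 10% or more of the 31-base runs found in the final 300 bases of the member.

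The hypoxia response element has the core ACGTG or GCGTG. RefSeq promoters of GRCm38.p6, which span 250 bases before to 50 after a gene's start, were on hand for 8 members, namely Ndufa4, Car12, Slc2a1, Vegfa, Bnip3, Egln3, Ddit4 and Pdk1. Of these, 7 held either core on either strand in at least 1 promoter, against 46.7% of the 27025 genes with a promoter. Matches may overlap, and a match is a run of letters, not a bound site. The promoters of Slc2a1 and Egln3 are shown because both hold a core while the genes differed from control in opposite directions in ESCC. They lie at chr4:119108495-119108794 (plus strand) and chr12:54203825-54204124 (minus strand), and capitals mark each core, read on either strand.
Slc2a1: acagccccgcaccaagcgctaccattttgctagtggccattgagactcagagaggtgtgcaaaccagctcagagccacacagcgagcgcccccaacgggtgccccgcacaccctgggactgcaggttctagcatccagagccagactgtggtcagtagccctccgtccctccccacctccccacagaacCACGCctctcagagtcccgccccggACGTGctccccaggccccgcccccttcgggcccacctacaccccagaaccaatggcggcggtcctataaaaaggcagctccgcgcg
Egln3: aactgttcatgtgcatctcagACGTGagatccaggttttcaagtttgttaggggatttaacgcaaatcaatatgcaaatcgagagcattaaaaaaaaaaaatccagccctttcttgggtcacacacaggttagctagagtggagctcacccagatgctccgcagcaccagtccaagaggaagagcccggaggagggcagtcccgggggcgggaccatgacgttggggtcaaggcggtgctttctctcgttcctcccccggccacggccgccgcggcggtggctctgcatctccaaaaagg

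Depth differed with the condition. The cells kept for the main values held 250 to 3500 genes and 100 to 9500 UMIs and were not called non-epithelial by marker genes. They were 1493 control, 143 EoE and 1472 ESCC cells, from 1500 deposited per condition. Per mouse, they held 111043 to 427752 UMIs in controls, 6245 to 41909 in EoE and 1240388 to 2103543 in ESCC. A floor of 3 UMIs over a group lay at 1.88 CPM (the usual count unit scaled to library size, here after TMM scaling) in controls, at 29.8 CPM in EoE and at 0.73 CPM in ESCC. Values over all deposited epithelial cells, which lower the EoE floor to 11.1 CPM, are therefore given beside the EoE results of the members other than Bnip3. Counts over gene lists rest on the cells kept. Basal, suprabasal and superficial markers were present in every group, although basal markers gave 0.17 to 0.32% of the UMIs in EoE mice against 1.23 to 1.91% in control mice. In each mouse with 2 libraries, these shared 4 to 52 cell barcodes, 239 in all. Each such cell was compared only with the cells of shared barcodes in the other library. In all 239 cases the closest of these was that of the same barcode, so these cells cannot be taken as independent. Counting them once left 6 members called in ESCC and 2 in EoE, the same numbers as with all cells.

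Ndufa4l2 was readily detected in every control mouse, without a UMI in any EoE mouse and low in ESCC. The controls held 927 UMIs of it in 503 of 1493 cells. Its level ranged from 366.6 to 823 CPM in control mice, with a median of 557 CPM and a mean of 570 ± 187 CPM (SD, n = 6). All 4 EoE mice were at 0 UMIs, also in all deposited cells. The ESCC mice 17F, 17M and 8M were at 3.50, 9.43 and 15.5 CPM, from 36 UMIs in 25 cells. Neither disease group overlapped the controls. Of the 5866 genes tested, 5.37% lay wholly above and 29.4% wholly below the controls in EoE, and 13.7% above and 11.4% below in ESCC. The control mean of Ndufa4l2 was at least 19.1-fold above the EoE floor, or at least 47.4-fold in all deposited cells. The ESCC mean was 60.3-fold lower than the control mean. The log2 fold change fitted by edgeR was -5.96, and it ranged from -6.38 to -5.56 as each mouse was left out in turn. As a share of the UMIs of Ndufa4l2 and Ndufa4 together, which needs no scaling between libraries, Ndufa4l2 gave 41.3 to 71.3% in control mice and 0.52 to 2.79% in ESCC mice. These values come from the samples by which the gene was chosen, so they describe its difference and do not test it. The libraries of a control mouse differed from each other in Ndufa4l2 by a ratio of 1.02 to 1.41.

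**Figure D1:**
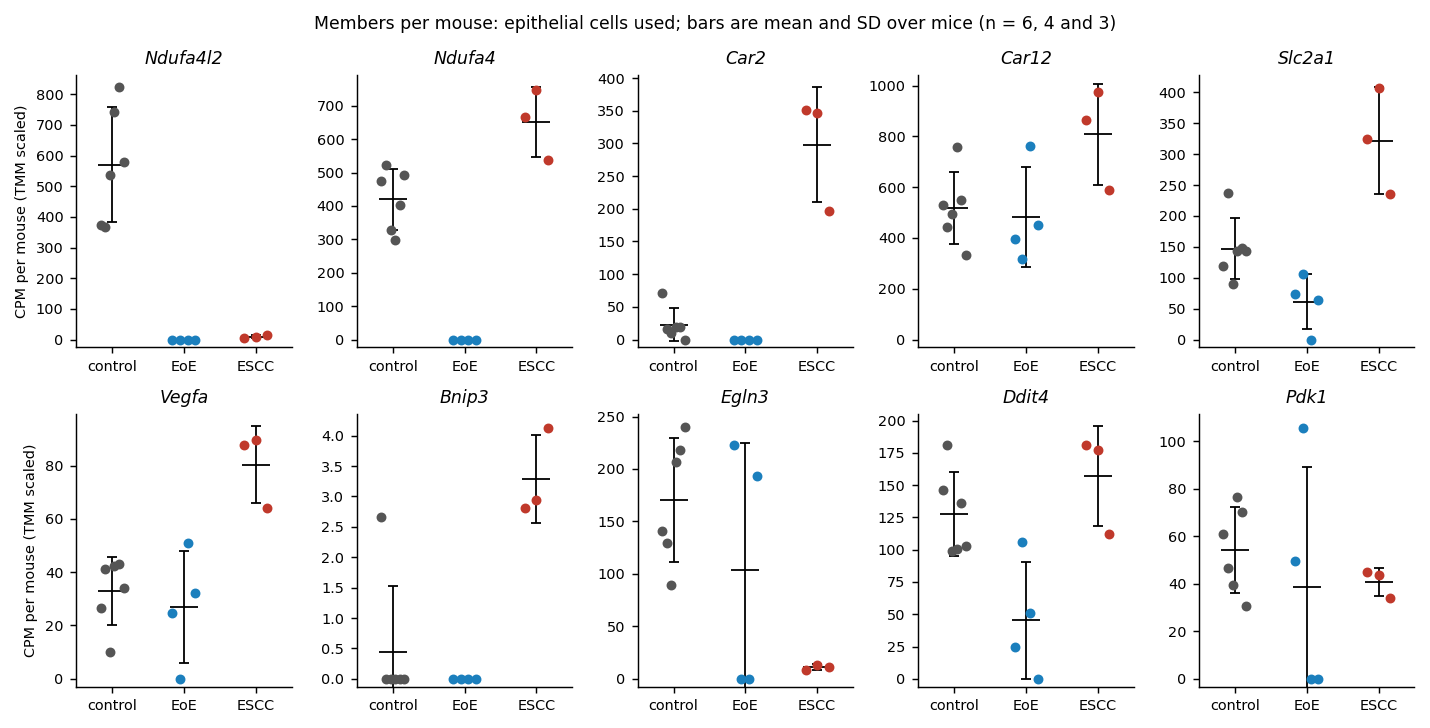
Level of each member in each mouse, in CPM after TMM scaling, for control (n = 6), EoE (n = 4) and ESCC (n = 3). Each panel has its own linear axis, each point is a mouse, and the black bars give the mean and SD. Ndufa4l2 is high in controls alone, Egln3 is lower in all ESCC mice than in any control, and Car2 and Vegfa are highest in the ESCC mice. EoE mice 11 and 12 are at 0 for Egln3, from 6245 and 17963 UMIs of all genes. In all deposited cells these mice were at 17.2 and 107 CPM of Egln3, against 80.1 to 222.5 CPM in controls.

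Other values moved with the condition in these files, and their part in the Ndufa4l2 result was not tested. Gm12669, annotated as a processed pseudogene, had the pattern most like that of Ndufa4l2 over the 13 mice (Pearson r = 0.99). Control mice held 458 UMIs of it, EoE mice 0 and ESCC mice 23. It shares 88.5% of the runs of 31 bases at its end with Glrx3, a glutaredoxin gene, which had the opposite order. In CPM without TMM scaling, over all deposited cells, Glrx3 was at 12.4 to 21.3 in control mice, 807 to 1527 in EoE mice and 113 to 153 in ESCC mice. Rpl17, a ribosomal protein gene, and its pseudogene Rpl17-ps8, both named here after their values were seen, also differed between the conditions. Rpl17 had 25 UMIs in control, 58 in EoE and 16347 in ESCC mice, while Rpl17-ps8 had 0, 1554 and 357. The share of UMIs assigned to pseudogenes was 0.105% in control, 0.852% in EoE and 0.157% in ESCC mice, and Rpl17-ps8 alone gave 1554 of the 2529 such UMIs in EoE. Whether UMIs were divided differently between such genes or their levels differed was not tested. The condition and the run or processing of its libraries cannot be told apart here.

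**Figure D2:**
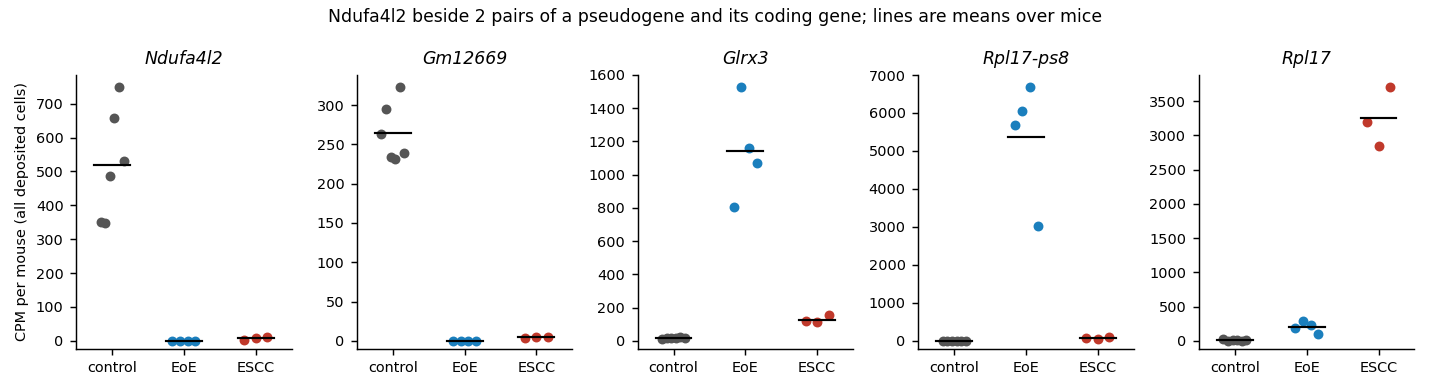
Level in CPM without TMM scaling in all deposited epithelial cells of each mouse for Ndufa4l2, the pseudogene Gm12669 and its coding relative Glrx3, and the pseudogene Rpl17-ps8 and its coding relative Rpl17. Each point is a mouse, lines are means over mice, and each panel has its own linear axis. Ndufa4l2 and Gm12669 are high in controls alone, Glrx3 and Rpl17-ps8 in EoE, and Rpl17 in ESCC.

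The next closest genes over the 13 mice were Nme2, a nucleoside diphosphate kinase (r = 0.98), Clec11a, a secreted lectin (r = 0.98), Rgcc, a regulator of the cell cycle (r = 0.97), and Pdk4, a pyruvate dehydrogenase kinase (r = 0.96). These correlations describe 13 points that share 3 conditions and their depths. Nme2 shares 98.1% of the runs of 31 bases at its end with an annotated read-through gene, so its counts are uncertain. Among the members, Ndufa4 had r = 0.68 with Ndufa4l2 and Egln3 had r = 0.63, ranks 822 and 1243 of the 5865 genes compared. Pericytes, the mural cells of small vessels, are known to express Ndufa4l2, and their markers were looked up in the same cells. Of 9 pericyte markers, Pdgfrb, Kcnj8, Vtn and Cox4i2 had 0 UMIs in every group, and Rgs5, Abcc9 and Higd1b had 0 in controls. The 182 marker UMIs of controls came from Notch3 (153) and Cspg4 (29), both also known in other cells, and the summed level was 0.0081 to 0.0124% of UMIs in control mice, 0.0024 to 0.016% in EoE mice and 0.0066 to 0.0072% in ESCC mice.

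Ndufa4, the cytochrome c oxidase subunit, was at 299 to 521 CPM in control mice (median 438 CPM, mean 419 ± 91.6 CPM, SD, n = 6). All EoE mice were at 0 in the cells used, and at 14.1, 17.2, 15.3 and 26.3 CPM (mice 10, 11, 12 and 9) in all deposited cells, from 5 UMIs. ESCC mice 17F, 17M and 8M were at 667, 747 and 538 CPM. The EoE values lay below and the ESCC values above every control, as 29.4% of the genes tested lay below in EoE and 13.7% above in ESCC. Against the EoE floor, the control mean was at least 14.1-fold higher, and the edgeR adjusted p of 2.62e-07 ranged from 5.54e-15 to 4.35e-05 over its alternatives. In ESCC the log2 fold change was 0.63 (SE 0.19, edgeR adjusted p = 0.0129). This call was lost without ESCC mouse 17F (0.59, adjusted p = 0.0765), without 17M (0.51, adjusted p = 0.117) and without control mouse 4 (0.52, adjusted p = 0.0631). Ndufa4 at its pooled control level would have given 114 UMIs in the deposited EoE cells. Of 351 genes at or above Ndufa4 in controls, 11, Ndufa4 and Ndufa4l2 included, were at or below its EoE level. They include Rpl30 and Rpl32, ribosomal protein genes at 1760.4 and 811 CPM without TMM scaling in controls and at 16.8 and 3.37 CPM in EoE, and Cox5a, a cytochrome c oxidase subunit gene without a UMI in EoE. These were named after their values were seen, and Rpl30 and Rpl32 have pseudogene copies.

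The carbonic anhydrases turn carbon dioxide and water into bicarbonate and acid. Car2, the cytosolic form, ranged from 0 to 71.8 CPM in control mice (median 17.0 CPM, mean 22.5 ± 25.2 CPM, SD, n = 6). It had 0 UMIs in EoE, also in all deposited cells. ESCC mice 17F, 17M and 8M were at 350.5, 347 and 197 CPM, above every control. The log2 fold change in ESCC was 3.50 (SE 0.35, edgeR adjusted p = 6.59e-09), and between 3.21 and 4.49 as each mouse was left out, highest without control mouse 1, which held 27 of the 43 control UMIs. Car2 passed the filter on low counts only through the ESCC mice, the group in which it is high. Its call is therefore not independent of that filter, here or within the classes below. No fold is given for EoE in the cells used, where the control mean lay under the EoE floor. In all deposited cells the control mean was at least 1.88-fold above the EoE floor, and Car2 at its pooled control level would have given 7.3 UMIs (edgeR adjusted p = 0.0649). Car12, the membrane-bound form that acts outside the cell, was at 332 to 760 CPM in control mice (median 513 CPM, mean 519 ± 141 CPM, SD, n = 6), at 396, 317, 764 and 451 CPM in EoE mice 10, 11, 12 and 9, and at 863, 975 and 588 CPM in ESCC mice 17F, 17M and 8M. All groups overlapped. In ESCC the log2 fold change was 0.63 (SE 0.22, edgeR adjusted p = 0.0224), a call that was lost without 17F (0.57, adjusted p = 0.131), without 17M (0.47, adjusted p = 0.204), without control mouse 6 (0.53, adjusted p = 0.0843) and at thinned depth (0.67, adjusted p = 0.122). In EoE it was -0.11 (SE 0.30, edgeR adjusted p = 0.799). This value turned to 0.91 (adjusted p = 0.00225) in all deposited cells, where EoE mice were at 534 to 1210 CPM.

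Slc2a1 encodes the glucose transporter GLUT1. It was at 89.3 to 237 CPM in control mice (median 143 CPM, mean 147 ± 49.6 CPM, SD, n = 6), at 74.2, 106, 0 and 64.5 CPM in EoE mice 10, 11, 12 and 9, and at 324, 408 and 235 CPM in ESCC mice 17F, 17M and 8M. The lowest ESCC mouse lay just below the highest control. The log2 fold change in ESCC was 1.13 (SE 0.21, edgeR adjusted p = 7.96e-05). In EoE, with 6 UMIs, it was -1.31 (SE 0.57, edgeR adjusted p = 0.0747), and it passed the test without the filter on low counts (-1.65, adjusted p = 0.0194, of a range from 0.0194 to 0.441 over the alternatives). In all deposited cells, 30 UMIs of Slc2a1 put the EoE mice at 105 to 120 CPM, within the control range, with a log2 fold change of -0.30 (edgeR adjusted p = 0.441). Vegfa, the main growth signal for blood vessels, was at 9.92 to 42.9 CPM in control mice (median 37.8 CPM, mean 32.9 ± 12.9 CPM, SD, n = 6). ESCC mice were at 87.6, 89.6 and 63.9 CPM, above every control, a log2 fold change of 1.21 (SE 0.24, edgeR adjusted p = 0.000226). In EoE, 3 UMIs of Vegfa gave a ratio to control of 0.851 with a 95% counting interval of 0.17 to 2.62. In all deposited cells the direction turned, with 12 UMIs and a ratio of 1.37 (counting interval 0.667 to 2.58).

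Egln3, or PHD3, is a prolyl hydroxylase that acts on HIF and is itself a HIF target. It was at 89.3 to 240 CPM in control mice (median 174 CPM, mean 171 ± 59.3 CPM, SD, n = 6). ESCC mice 17F, 17M and 8M were at 8.41, 13.6 and 11.3 CPM, from 46 UMIs, below every control. The log2 fold change was -3.96 (SE 0.31, edgeR adjusted p = 9.24e-12), and between -4.16 and -3.79 as each mouse was left out. EoE mice 10 and 9, both young, were at 222.5 and 193 CPM, within the control range, while the old mice 11 and 12 were at 0. In all deposited cells the old EoE mice were at 17.2 and 107 CPM and the young at 141 and 132 CPM. The EoE difference from control was -0.29 on the log2 scale (SE 0.47, edgeR adjusted p = 0.659), and -0.68 (adjusted p = 0.118) in all deposited cells. Its change with age in EoE less that in controls, whose young mice were older than the young EoE mice, had an edgeR adjusted p of 0.487.

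Ddit4, or REDD1, restrains mTORC1 under stress. It was at 99.2 to 181 CPM in control mice (median 120 CPM, mean 128 ± 32.9 CPM, SD, n = 6), at 24.7, 106, 50.9 and 0 CPM in EoE mice 10, 11, 12 and 9, and at 181, 177 and 112 CPM in ESCC mice 17F, 17M and 8M. ESCC overlapped the control range, with 17F just above its upper edge (log2 fold change 0.30, SE 0.21, edgeR adjusted p = 0.277). In EoE it rested on 3 UMIs, a ratio to control of 0.235 with a 95% counting interval of 0.048 to 0.696. The fit gave a log2 fold change of -2.08 (SE 0.69, edgeR adjusted p = 0.0195), but the call was lost in all deposited cells (-0.74, adjusted p = 0.103), with DESeq2 (-2.06, adjusted p = 0.0531), without mouse 10 (-1.92, adjusted p = 0.106) and without mouse 9 (-1.64, adjusted p = 0.0851). Pdk1, which blocks the entry of pyruvate into the citric acid cycle, was at 30.8 to 76.8 CPM in control mice (median 53.8 CPM, mean 54.2 ± 18.1 CPM, SD, n = 6) and at 44.9, 43.6 and 34.0 CPM in ESCC mice, within the control range (log2 fold change -0.46, SE 0.26, edgeR adjusted p = 0.187). Its 3 UMIs in EoE gave a ratio to control of 0.518 (counting interval 0.105 to 1.56), and 7 UMIs in all deposited cells gave 0.485 (counting interval 0.19 to 1.04). Bnip3, a mitophagy receptor, had 1 UMI in control, 0 in EoE and 13 in ESCC mice, and did not pass the filter on low counts. Its ratio of ESCC to control was 5.07, with a counting interval of 0.762 to 215.

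**Figure D3:**
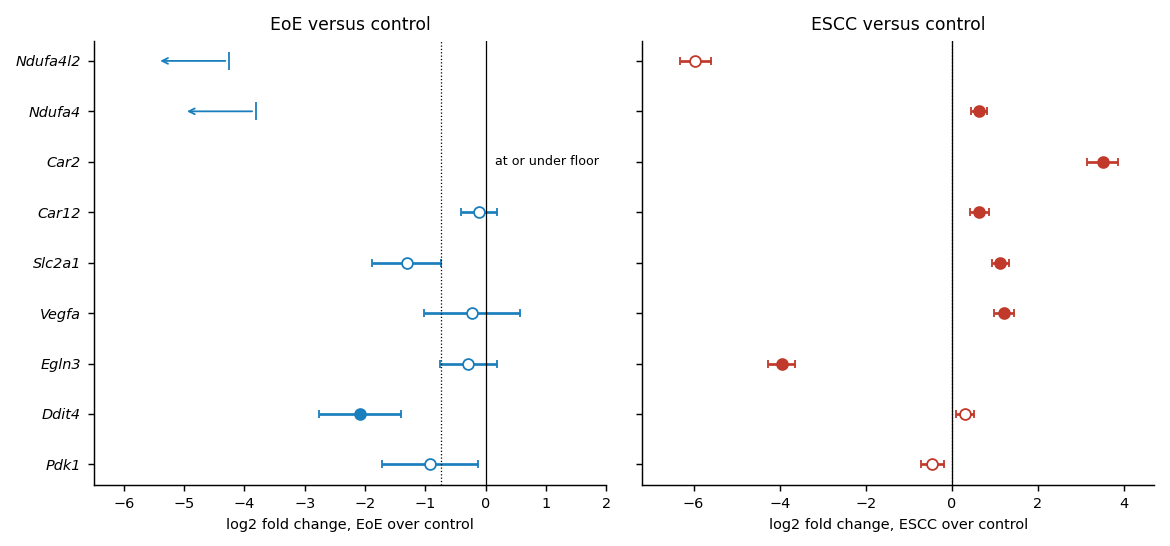
Log2 fold change of each member tested in EoE (left) and ESCC (right) over control, with SE bars. Filled points passed an edgeR adjusted p of 0.05, open points did not or, for Ndufa4l2, carry no test. Arrows start at the bound set by 3 UMIs for a group without a UMI, Car2 in EoE has no fold, and dotted lines give the median of all genes tested. In ESCC, Ndufa4l2 (-5.96) and Egln3 (-3.96) lie far to the left and Car2 (3.50) far to the right.

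Beside Ndufa4l2, 8 members passed the filter on low counts, Car2 only through its ESCC values. In ESCC, 5 of them were higher than in controls (Ndufa4, Car2, Car12, Slc2a1 and Vegfa), 1 was lower (Egln3) and 2 were not called. Of the 5866 genes tested, 34.6% were called in ESCC, 17.8% higher and 16.8% lower. The median log2 fold change of the 8 members was 0.63, against 0.01 for all genes tested. In EoE, 2 of the 8 were called, both lower (Ndufa4 and Ddit4), and 1 was left with DESeq2, without mouse 9 or without mouse 10. At thinned depth 1 was also left, but Ddit4 did not pass the filter on low counts there and was not tested. In the main EoE comparison, 34.5% of genes were called, 9.48% higher and 25.0% lower, and the median of all genes was -0.75, and Ddit4 relative to it was at -1.34 on the log2 scale. Between the diseases, 5 of the 8 were called, with Ndufa4, Car2, Slc2a1 and Ddit4 higher and Egln3 lower in ESCC than in EoE, against 41.6% of all genes. The log2 fold change of ESCC over EoE was -3.67 for Egln3 (SE 0.65, edgeR adjusted p = 4.27e-05) and 2.44 for Slc2a1 (SE 0.52, edgeR adjusted p = 0.000453). For Ndufa4l2, which lay under the EoE floor in both diseases, a difference between them was not detectable at this depth (edgeR adjusted p = 0.395).

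Age was compared within controls and within EoE. Ndufa4l2 was at 375, 367 and 579 CPM in the young control mice 1, 2 and 6 and at 536, 744 and 823 CPM in the old mice 3, 4 and 5. The ranges overlapped, and the log2 fold change of old over young was 0.68 (SE 0.27, edgeR adjusted p = 1.0). Ndufa4 was at 473 to 521 CPM in young and at 299 to 402 CPM in old controls, which did not overlap (-0.54, SE 0.23, edgeR adjusted p = 1.0). No member was called with age. By edgeR, 0 of 6488 genes (0.0%) were called between old and young controls, with 293 at an unadjusted p under 0.05 and 1 called by DESeq2. Between old and young EoE mice 1 gene was called (0.0154%), and 1 gene (0.0154%) for the EoE effect in old less that in young mice, neither of them a member. Young meant 6 to 8 weeks in EoE but 3 to 4 months in controls, so this last comparison also sets unlike ages side by side.

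The members were next followed along differentiation. Control cells were clustered without the members and the HIF lists, and each cluster was placed by Krt5, a keratin of basal cells, against Krtdap, a gene of keratinocyte differentiation. Clusters with Krt5 ahead are called basal, those within a strip of near-equal levels suprabasal, and those with Krtdap ahead above the strip. Cells of all conditions were then assigned by a vote of the 15 closest control cells from other mice. Of the 5 control clusters, 4 had no listed layer marker among their 10 leading genes, so the classes are named by this rule alone. Levels between classes are descriptions. In controls, Ndufa4l2 was highest above the strip, at 666 to 1433 CPM (mean 978 ± 282 CPM, SD, n = 6), against 217 to 520.0 CPM in basal (mean 368 ± 132 CPM, SD, n = 6) and 115 to 771 CPM in suprabasal cells (mean 371 ± 262 CPM, SD, n = 5). The level above the strip exceeded the basal level in 6 of 6 mice, by a ratio of the means of 2.66. Basal and suprabasal cells did not differ beyond their spread. Egln3 had the same order, at 148 to 388 CPM above the strip against 46.2 to 173 CPM in basal cells and higher in 6 of 6 mice (ratio 2.44), as did Pdk1 (59.0 to 122 CPM against 0 to 71.7 CPM, 6 of 6 mice, ratio 2.63). Vegfa was higher above the strip in 5 of 6 mice (ratio 2.72). Car12 and Slc2a1 went the other way. In suprabasal cells they were at 892 ± 279 and 270 ± 63.6 CPM (SD, n = 5), above the basal level in 5 of 5 mice, and above the strip at 427 ± 122 and 131 ± 72.2 CPM (SD, n = 6). Ndufa4 was at 371 ± 75.8 CPM in basal cells and 533 ± 188 CPM above the strip (SD, n = 6). It was higher above the strip in 5 of 6 mice (ratio 1.44), with ranges that overlapped. Ddit4, at 144 ± 49.9 and 122 ± 47.4 CPM, changed less than its spread and was higher above the strip in 3 of 6 mice.

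**Figure D4:**
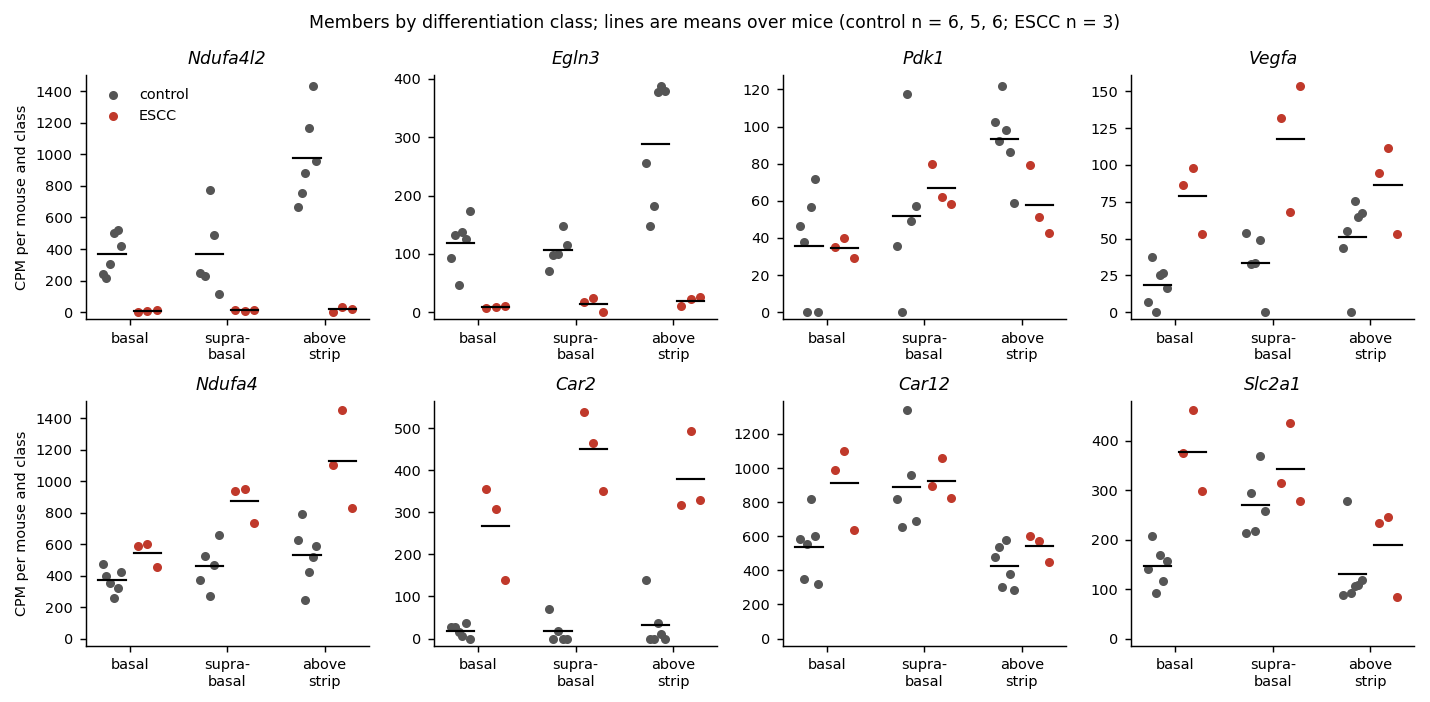
Level of 8 members in each differentiation class, in CPM after TMM scaling, for control (grey) and ESCC mice (red). Each point is a mouse with at least 10 cells of the class, and lines are means over mice. Ndufa4l2, Egln3 and Pdk1 are highest above the strip in controls, Car12 and Slc2a1 in suprabasal cells, and Ndufa4l2 and Egln3 are low in every class of ESCC.

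In ESCC, the share of basal cells was 66.9 to 74.9% per mouse, against 42.8 to 68.6% in controls, so the comparison was repeated within each class. The classes were not alike between the conditions in the genes that define them. Krt5 was at 3102 to 11022 CPM above the strip in ESCC mice against at most 1522 CPM in controls, and in 17F it was level with Krtdap there (9641 and 9685 CPM). In suprabasal cells Krt5 was at 12460 to 17079 CPM in ESCC against 4385 to 6879 CPM in controls. Differences within a class are therefore between cells that also differ in Krt5, whose part was not tested. Ndufa4l2 was at 2.08 to 15.4 CPM in basal, 6.18 to 17.2 CPM in suprabasal and 0 to 32.5 CPM above the strip in ESCC mice, below every control mouse of the same class. Of 6 other members tested in basal cells, 5 were called, against 31.5% of all genes. These were Car2 (log2 fold change 3.88, SE 0.41, edgeR adjusted p = 1.7e-07), Egln3 (-3.74, SE 0.37, edgeR adjusted p = 4.75e-08), Slc2a1 (1.34, SE 0.21, edgeR adjusted p = 3.05e-05), Car12 (0.76) and Ndufa4 (0.57). Without mouse 17F or without 17M, 3 were called. In suprabasal cells, 2 of 4 were called, against 33.6% of all genes, Car2 (4.15, SE 0.48) and Ndufa4 (0.85, SE 0.25), and 1 without control mouse 4. Above the strip, 3 of 8 were called, against 27.6% of all genes, Car2 (3.13, SE 0.46), Egln3 (-3.90, SE 0.37) and Ndufa4 (1.04, SE 0.23). Slc2a1 was not called there (0.62, SE 0.35, edgeR adjusted p = 0.2), nor in suprabasal cells (0.27, SE 0.26, edgeR adjusted p = 0.452), and whether its change differs between classes was not tested.

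In EoE, only 26 basal, 35 suprabasal and 82 cells above the strip were kept. The basal name is in doubt here, since Krt5 was at 1068 CPM in the basal cells of mouse 10, the only EoE mouse with at least 10 of them, against 7832 to 10100 CPM in control basal cells. Ndufa4l2 had 0 UMIs in each class. In CPM without TMM scaling, the floor of 3 UMIs lay at 305, 193 and 41.3 in the 3 classes in that order, against pooled control levels of 343, 397 and 780.1. The exact Poisson upper bounds for a count of 0 were 375, 238 and 50.8 CPM, so a count of 0 in basal cells does not resolve the control level. In all deposited cells the floors were 20.1, 47.6 and 35.4 CPM, but 1085 of the 1498 EoE cells were then assigned to the basal class. The added cells were shallow, with a median of 101 to 213.5 UMIs per deposited cell of an EoE mouse, so the class held other cells than before. Over all classes the floor was 30.6 CPM in the cells used and 10.1 CPM in all deposited cells, against a pooled control level of 531 CPM. Such floors and bounds cover counting error only. Egln3 had 13 UMIs in EoE cells above the strip, 179 CPM with an exact Poisson interval of 95.3 to 306.1 CPM. Over the 17 points of a control mouse and class, the genes most like Ndufa4l2 were Osbpl1a (r = 0.88), H2-D1 (r = 0.87), Sdr42e1 (r = 0.86), Npepps (r = 0.86) and Sema4a (r = 0.86), points that share mice and libraries. Egln3 ranked 111 of 6495 genes there (r = 0.73).

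Other genes of the pathway were taken from lists that were written with earlier results known. Their counts stand beside 17.8% of all genes called higher and 16.8% lower in ESCC (median 0.01), and 9.48% higher and 25.0% lower in EoE (median -0.75). Of 10 genes of the HIF machinery tested, 3 were higher and 1 lower in ESCC, with a median of 0.27. Hif1a, the oxygen-regulated subunit, was at 161 to 849 CPM in ESCC against 109 to 157 CPM in controls (log2 fold change 2.03, SE 0.29, edgeR adjusted p = 1.44e-06). Elob, an elongin of the complex that removes HIF, was higher (2.41, SE 0.20, edgeR adjusted p = 3.62e-11), and Egln1, or PHD2, was lower (-0.55, SE 0.19, edgeR adjusted p = 0.0258). Of 18 other HIF targets tested, 4 were higher and 7 lower in ESCC (median -0.45), among them Fam162a (1.29, SE 0.18), Bhlhe40 (-1.73, SE 0.24) and Ndrg1 (-1.61, SE 0.25). In EoE, 1 gene of the machinery was higher and 3 were lower (median -0.57), and of the other targets 3 were higher and 4 lower (median -0.71). Elob was higher there too (1.99, SE 0.39), while Egln1 (-1.49, SE 0.40) and Eloc, the partner of Elob (-3.85, SE 0.59, from 2 UMIs), were lower. Of the targets, Fam162a, higher in ESCC, was lower in EoE (-5.67, SE 0.61, from 1 UMI), as was Mif, a secreted cytokine (-4.66, SE 0.55, from 2 UMIs), while Ak4, a mitochondrial adenylate kinase, was higher (2.24, SE 0.49).

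The respiratory chain lists bear on Ndufa4, and their counts stand beside the same shares of all genes (17.8% higher and 16.8% lower in ESCC, 9.48% and 25.0% in EoE) and the same medians (0.01 and -0.75). Of 11 cytochrome c oxidase genes tested, 0 were higher and 9 lower in EoE (median -2.26), and 4 were higher and 1 lower in ESCC (median 0.27). Cox6a1 (-5.48, SE 0.45, from 3 UMIs) and Cox8a (-2.36, SE 0.28) were lower in EoE, as was Cox5a, which had 0 UMIs. In ESCC, Cox5b (2.62, SE 0.19) and Cox7c (2.36, SE 0.21) were higher and Cox5a (-0.83, SE 0.18) was lower. Of 13 complex I genes of the NDUFA series, 0 were higher and 5 lower in EoE (median -0.90), and 9 were higher and 1 lower in ESCC (median 0.62). Ndufa3 (-2.42, SE 0.54, from 4 UMIs), Ndufa7 (-3.92, SE 0.89, from 1 UMI) and Ndufa1 (-3.05, SE 0.74, from 2 UMIs) were lower in EoE. Ndufa8 (1.33, SE 0.22), Ndufa5 (1.09, SE 0.20) and Ndufab1 (1.58, SE 0.30) were higher in ESCC. Of 9 pyruvate dehydrogenase and kinase genes, 1 was higher and 2 lower in ESCC (median 0.14) and 4 were lower in EoE (median -0.997). Pdk4 (-3.42, SE 0.44) and Pdha1, a subunit of pyruvate dehydrogenase (-1.15, SE 0.20), were lower in ESCC, while Pdhb, its partner, was higher (1.04, SE 0.21). In EoE, Pdhb and Pdk4, both without a UMI in the cells used, and Dld, the dihydrolipoamide dehydrogenase (-1.49, SE 0.49, from 6 UMIs), were lower. The call of Pdhb was lost in all deposited cells (-1.12, edgeR adjusted p = 0.0657). Of 6 genes of the mTOR and stress list, 2 were higher and 1 lower in ESCC (median -0.19), namely Ddit4l (3.23, SE 0.37), a relative of Ddit4, Atf4 (0.71, SE 0.18), a stress transcription factor, and Rheb (-0.60, SE 0.18), an activator of mTORC1. Ddit4l, at 0 to 18.5 CPM in control mice, passed the filter on low counts through its ESCC values. In EoE, 1 was lower (Rheb, -1.39, SE 0.35). Car13 was the only other carbonic anhydrase tested, and it was lower in ESCC (-0.68, SE 0.20) and in EoE (-1.70, SE 0.52). Vegfb, the only other VEGF family gene tested, was not called in ESCC and was lower in EoE, where it had 0 UMIs in the cells used.

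Marker lists moved with the conditions as well, and their part in the members' values was not tested. In ESCC, 4 of 7 basal markers were higher and 1 lower, and all 6 suprabasal and all 6 superficial markers tested were lower (medians 0.79, -1.98 and -3.99). In EoE, 5 of 7 basal markers were lower, 2 of 6 suprabasal markers were higher and 2 lower, and 3 of 6 superficial markers were higher (medians -3.30, 0.14 and 1.61). Among those higher, the suprabasal marker Dsg1a (edgeR adjusted p = 0.169) and the superficial marker Cnfn (edgeR adjusted p = 0.073) lost their calls in all deposited cells. Of the fibroblast markers, Dcn alone was tested and was lower in ESCC (-1.46, SE 0.47). Of the endothelial markers, Pecam1 alone was tested and was higher in EoE, with 12 UMIs against 3 in controls, while Cdh5, Kdr, Emcn and Plvap had 0 UMIs in both groups and Esam had 11 in controls and 0 in EoE. Of the pericyte markers, Notch3 alone was tested and was not called. No immune, muscle or erythroid marker passed the filter. Summed immune markers were 0 to 0.0029% of UMIs in control mice, 0 in EoE mice and 0.0068 to 0.0106% in ESCC mice. These sums cover the cells kept, after cells dominated by markers of other cell types were removed, so they do not measure immune content. The 0 in EoE rests on 97975 UMIs of all genes.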

How the data were processed

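UMI counts per gene and cell of 22 inDrop libraries of 13 mice were deposited by the authors as whole numbers without normalization. The authors extracted barcodes with UMI-tools 1.0.0, aligned reads with STAR 2.7.3 to GRCm38 (GENCODE M23), assigned them with featureCounts, filtered cells and drew 1500 cells per condition. The paper states the same limits of genes and UMIs as used here, yet most of the 1500 deposited EoE cells did not meet them, and 143 were kept. Here, cells with 250 to 3500 genes, 100 to 9500 UMIs and without 3 or more UMIs of other cell types' markers that outnumbered epithelial ones were kept, counts were summed per mouse over both libraries, and the 3 groups entered a single quasi-likelihood fit (edgeR 4.0.16 under R 4.3.3, TMM scaling, genes kept by filterByExpr, threshold 0.05 after Benjamini-Hochberg adjustment over all genes tested). SE is the log2 fold change divided by the root of F. P-values measure the spread between mice. DESeq2 1.42.0 was an alternative. Classes used 2000 variable genes, 50 components, 15 neighbors, Leiden resolution 1 and a strip of 0.3 (scanpy 1.11.5). No doublet caller was run, and leaving out the deepest 5% of cells was an alternative. The procedure was tested on simulated data. Depth was 111043 to 427752 UMIs per control mouse, 6245 to 41909 in EoE and 1240388 to 2103543 in ESCC, and intervals and floors of 3 UMIs cover counting error only. Members, lists, tests and alternatives were chosen with earlier results of these data known. Named genes are the members, at most 3 called genes per list and disease with the lowest adjusted p, and the 5 genes with the highest correlation with Ndufa4l2 over mice and over control classes. Sequences came from GENCODE M21 and RefSeq. No mitochondrially encoded gene is listed in the tables used here.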

Additional observations from a re-analysis of the deposited data

Results flagged for a closer look

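In 16 sets of control or EoE values, a mouse far from the rest of its group was looked for, and 2 sets held such a mouse. Chance flags about 1 in 20. Car2 stood at 71.8 CPM in control mouse 1, against at most 19.5 CPM in the other control mice. Bnip3 stood at 2.66 CPM in the same mouse, which is its single UMI in controls.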

How the results depend on the processing

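Over alternatives other than leaving out a mouse, 183 fold changes of members kept their direction and, where tested, their side of the threshold. Another 3 lost and 5 gained a call and 5 changed sign. For Ndufa4l2, which carries no test, 4 fold changes moved by at least the SD of its log2 level in control mice. Car12 in EoE against control turned to 0.91 in all deposited cells, 0.11 at thinned depth and 0.0289 when the groups were compared alone, and Vegfa to 0.46 in all deposited cells. Car12 in ESCC against EoE turned to -0.31 in all deposited cells. The cause was not tested. Thinning to the EoE depth, which removes UMIs, left 451 genes in EoE, 192 in ESCC and 460 between the diseases, with 1 member in each. Beside Ndufa4l2, only Ndufa4 and Car12 passed the filter on low counts at that depth. The other members were untested there rather than not called. Without the deepest cells 1059 genes were called in EoE and 1361 between the diseases, and groups compared alone gave 679 between the diseases with 2 members. Of the members, Ndufa4 and Car12 alone passed the filter on low counts in that last fit. DESeq2 called 1 member in EoE. For old against young controls, 1 gene was called at thinned depth, 1 by DESeq2, 18 with no filter and 5 in groups compared alone. For old against young EoE, the calls were 2 in all deposited cells, 0 without the deepest cells, 2 at thinned depth, 24 by DESeq2, 23 with no filter and 0 in groups compared alone. For the EoE effect in old less that in young mice, they were 0 without the deepest cells, 0 at thinned depth, 7 by DESeq2, 5 with no filter and 2 in groups compared alone. No filter gave 1865 genes in basal and 861 in suprabasal cells, with 4 members in the latter, and Leiden resolution 0.5 gave 5 members above the strip.

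Leaving out each mouse in turn gave 1146 to 2018 genes in EoE, lowest without mouse 10, with 1 to 2 members, and 1365 to 2194 genes in ESCC with 4 to 6 members. Between the diseases it gave 1583 to 2519 genes, lowest without EoE mouse 10. Old against young EoE and its difference from controls gave 0 to 1 gene, with 0 without EoE mouse 12. Within classes, members called were 3 to 6 in basal and 1 to 2 in suprabasal cells. In EoE against control, Car12 ranged from -0.39 to 0.0285 (without EoE mouse 10) and Egln3 from -0.86 to 0.0244 (without EoE mouse 12), and Pdk1 in ESCC against EoE from -0.0069 (without EoE mouse 9) to 1.27. Counting shared barcodes once was added after seeing the data and called 2060, 1983 and 2471 genes in the main comparisons, with 6 members between the diseases. The 143 EoE cells kept limit every EoE value. No paired analysis was possible because the groups share no replicate numbers.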
